A study of Solanum lycopersicum with 12 samples.

Results

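Homeobox genes encode transcription factors that bind DNA through a homeodomain, and in plants they fall into classes with distinct partner domains. BELL and KNOX proteins, together called TALE proteins, pair with each other and are known for their work in meristems and organ patterning, and tomato members act on chloroplast development in the fruit. HD-ZIP proteins carry a leucine zipper next to the homeodomain: class I is known for responses to drought and abscisic acid, class II for shade and auxin responses, class III for leaf polarity and vascular tissue, and class IV for the epidermis, including the fruit cuticle.

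The genes described here are those whose deposited annotation names a homeobox or homeodomain (260 of 35882 features, HB-1 left out) and that had at least 10 counts in 3 or more libraries, which left 103. Of these, 81 belong to homeobox classes. The other 22 were taken in by the wording of the annotation alone: 9 carry a plant homeodomain finger, which is a zinc finger and not a homeodomain, and 13 are Myb-type proteins described as homeodomain-like. Only 2 annotated genes were matched through the transcription factor family column, which holds protein domain names. The remaining 157 annotated genes did not reach the count rule, and 109 of them had no count in any library. Among classes, all 5 DDT-domain genes, all 4 SAWADEE-domain genes, 11 of 14 BELL and 14 of 23 HD-ZIP I genes were kept, against 12 of 79 HD-ZIP IV, 4 of 30 zinc-finger homeodomain (ZF-HD) and 1 of 11 WOX genes. At the edge of the rule, the third-highest count was 10 for Solyc04g076400 and 11 for Solyc05g015030, which were kept, and 9 for Solyc07g037920 and 8 for Solyc02g086140, which were not. A further limit of the rule is that 6 members met it only with the help of 1 group: without that group's libraries fewer than 3 reached the count. Of these 6, 4 were called somewhere (Solyc02g081120, Solyc05g007580, Solyc05g015030 and Solyc10g086640), and a difference from the group that let such a gene in is partly set by the rule.

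RNA sequencing was done on the fruit wall (pericarp) of tomato. The 4 groups of 3 libraries were wild type (WT) at mature green, WT at breaker, the stage of first colour change, and a mutant labelled cr at the same stages. The labels mark mature green as 35 and breaker as 38 without saying what is counted, they do not name the gene mutated in cr, and none was inferred. Whether the 3 libraries of a group are separate plants is not given, so the spread behind each p-value may be technical only. Libraries held 17703054 to 19426192 counts, and the 103 genes took 0.425 to 0.526% of them. Levels are given as CPM (counts scaled to a common library total, with TMM factors between libraries) within a gene and as the deposited FPKM (per length) between genes. Genes were tested with edgeR's quasi-likelihood test over the whole table, and a gene is called, and said to rise or fall, at a Benjamini-Hochberg adjusted p under 0.05. Of the 103, 102 were tested, the exception being Solyc04g076400.

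The labelled tissue and stages were checked against ripening genes. Of 5 listed, 4 were tested, and RIN gave no test result. E8, PSY1, PG2A and EXP1 were all called higher at breaker in both genotypes, and all 4 were called lower in cr than in WT at breaker (median log2 -0.98). At mature green 3 of the 4, all but PSY1, were already called lower in cr (median of the 4, -2.11), so the genotypes differed in ripening genes at both stages. Other tissues were represented by genes with seed storage or late embryogenesis annotations and by xylem annotations (laccase, fasciclin, cinnamyl alcohol dehydrogenase). Summed seed-annotated CPM ran from 6210 to 9446 in WT and 6737 to 8142 in cr at mature green, and from 2989 to 3281 in WT and 4157 to 5638 in cr at breaker. Between 92 and 104 of the 206 seed-annotated genes were at 0 in a group. Summed xylem-annotated CPM was 493 to 527 in WT and 387 to 455 in cr at mature green, and 322 to 357 and 300 to 359 at breaker, with 39 to 43 of 78 genes at 0. Of 64 seed-annotated genes tested, 15 were called higher and 21 lower over stage in WT, and 9 higher and 12 lower in cr than in WT at breaker. Of 26 xylem-annotated genes tested, 1 was called higher and 16 lower over stage in WT, and 12 higher and 1 lower in cr than in WT at breaker, directions that many of the genes below share. Over all genes, 23.4% were called higher and 24.9% lower over stage in WT, and 14.0% higher and 11.0% lower in cr than in WT at breaker. The part of the seed- and xylem-annotated genes in the results was not tested. In such bulk samples, fewer cells of a type and less RNA per cell cannot be told apart.

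A principal component analysis of the members followed stage and placed cr at breaker between the other groups. The first component, with 74.2% of the variance, ran from -5.76 to -3.94 in WT and -7.11 to -4.80 in cr at mature green. At breaker it ran from 8.75 to 9.48 in WT and from -0.145 to 3.2 in cr. The same layout was seen over all genes tested, so it is not particular to the members. There the first component, with 63.7% of the variance, ran from -78.7 to -39.9 over the mature green libraries. At breaker it ran from 94.9 to 106 in WT and from -4.25 to 31.9 in cr. Of the 59 members called over stage in WT, 53 (89.8%) had a cr breaker mean between the WT stage means, near the 87.5% of all genes called there.

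Between genes, a few members made up much of the family's transcript level. Mean FPKM over all libraries ran from 0.135 to 327 with a median of 7.84, 7 members were above 100 and 16 below 1. The 5 highest held 42.8 to 49.0% of the summed member FPKM in each library. They were the HD-ZIP I gene Solyc03g113270 (327), the BELL genes Solyc01g007070 (203), Solyc11g068950 (190) and Solyc06g074120 (130), and the class II KNOX gene Solyc07g007120 (181). In WT at mature green, the mean FPKM of these genes other than Solyc06g074120 lay between 216 ± 8.2 (SD, n = 3) for Solyc07g007120 and 226 ± 13.9 for Solyc01g007070, differences within their spread. At breaker in WT the order opened, with Solyc03g113270 at 550 ± 37.5 FPKM and Solyc06g074120 next at 172 ± 3.17.

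The largest difference between the genotypes at mature green was in an HD-ZIP IV gene. Solyc06g035940 (SL4.0 chromosome 6, 23134857 to 23150907, plus strand) is annotated as ROC5, whose rice namesake acts in the leaf epidermis. WT libraries measured 392, 371 and 366 CPM at mature green and 346, 339 and 307 CPM at breaker. The cr libraries measured 45.7, 98.4 and 24.9 CPM at mature green and 73.1, 38.3 and 61.5 CPM at breaker. Every cr library lay below every WT library at both stages, while the stages overlapped within cr. The log2 fold change of cr against WT was -2.74 (SE 0.38, adjusted p = 0.00212) at mature green and -2.52 (SE 0.37, adjusted p = 0.000404) at breaker. Between stages its level was not called in either genotype, and the 2 genotype differences were not called different (interaction 0.22, SE 0.50, adjusted p = 0.825). Solyc06g035880 and Solyc06g035883, also annotated ROC5, had no count in any library. The treatment of multi-mapping reads is not given, and any effect of such copies on the level of Solyc06g035940 was not tested.

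Both calls of Solyc06g035940 held in all 21 alternative fits, with log2 fold changes of -3.41 to -2.38 at mature green and -2.73 to -2.30 at breaker; the first bound came without cr replicate 2 at mature green, the highest of its group. It was 1 of 170 genes (0.865% of those tested) called lower in cr at both stages, and 21 of these, itself included, had fold changes at least as low at both. The 10 tested genes on either side of it on the chromosome were looked at after its values were seen. None of these 20 was called at mature green, against 4.34% of all genes, and their log2 fold changes ran from -0.80 to 0.59. At breaker 6 of the 20 were called, against 25.0% of all genes, and their fold changes ran from -0.62 to 2.91. The nearest one upstream, Solyc06g035930, was at -0.80 (adjusted p = 0.116) and -0.19 (adjusted p = 0.651) at the 2 stages, and the nearest downstream, Solyc06g035960, at 0.08 (adjusted p = 0.872) and -0.62 (adjusted p = 0.0266).

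**Figure D1:**
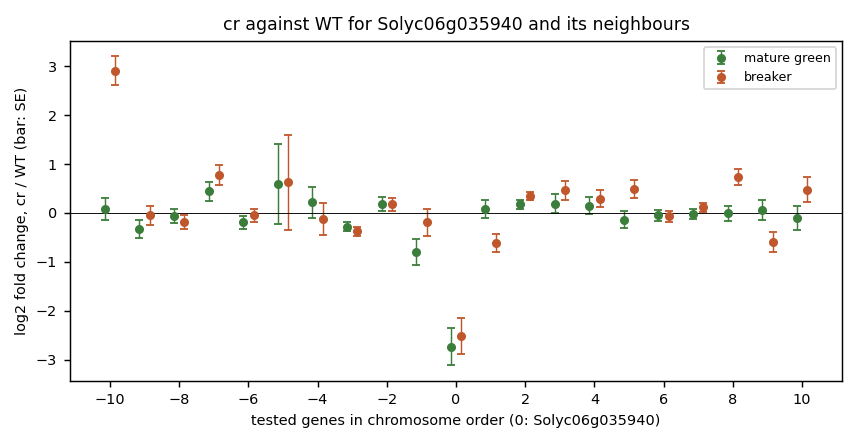
Log2 fold change of cr against WT (vertical axis, bars are SE) for Solyc06g035940 at position 0 and the 10 tested genes on each side in chromosome order, at mature green (green) and breaker (orange). Solyc06g035940 sits at -2.74 and -2.52, below all 20 neighbours at both stages.

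At mature green, 3 members were called between the genotypes, all lower in cr. That is 0% called higher, against 1.72% of all genes, and 2.94% called lower, against 2.62% of all genes. In either direction 4.34% of all genes were called. Besides Solyc06g035940 they were Solyc03g120620, annotated GLABRA 2, a regulator of trichomes and root hairs in Arabidopsis, and Solyc06g060830, annotated HAT2, an auxin-related HD-ZIP II gene in Arabidopsis. Solyc03g120620 measured 39.4, 37.8 and 33.3 CPM in WT and 24.7, 26.5 and 29.5 CPM in cr, and Solyc06g060830 measured 6.75, 6.99 and 7.69 CPM in WT and 4.26, 4.66 and 4.32 CPM in cr. The groups did not overlap in either gene. The fold changes were -0.45 (SE 0.11, adjusted p = 0.0347) and -0.69 (SE 0.17, adjusted p = 0.0423) on the log2 scale. These 2 calls were lost in 8 and 13 of the alternative fits, with adjusted p up to 0.128 and 0.160. The count fell from 3 to 1 when replicate 1 or 3 of WT or replicate 1 or 2 of cr at this stage was left out, and DESeq2 called 6.

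From mature green to breaker in WT, more members fell than rose. Of 102 members, 22 were called higher (21.6%, against 23.4% of all genes) and 37 lower (36.3%, against 24.9%), where 48.3% of all genes were called in either direction. The HD-ZIP I and BELL classes held 17 of the 37: HD-ZIP I had 1 higher and 10 lower of 14, and BELL had 2 higher and 7 lower of 11. HD-ZIP III had 0 higher and 4 lower of 7, HD-ZIP II 0 and 4 of 8, and KNOX 2 and 2 of 6. HD-ZIP IV went both ways, with 5 higher and 3 lower of 12, and the DDT class had 4 higher and 0 lower of 5. The median log2 fold change was -0.18 over members, -1.25 in HD-ZIP I and -0.61 in BELL, and 0.00 over all genes tested. With upper quartile factors the split was 18 higher and 40 lower, and with library totals alone, which moved the median of all genes by -0.19, it was 14 and 42. Falls were then more frequent over all genes too: 17.8% were called higher and 29.7% lower with upper quartile factors, and 14.5% and 34.5% with library totals. Rises made up 37.3% of member calls against 48.4% of all calls in the TMM fit, 31.0% against 37.5% with upper quartile factors, and 25% against 29.6% with library totals.

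In cr the same stage comparison gave 16 members higher (15.7%, against 15.2% of all genes) and 22 lower (21.6%, against 13.5%), where 28.7% of all genes were called in either direction. The comparisons of the 2 genotypes over stage share no libraries. Of the members, 10 were called higher in both, 18 lower in both and none in opposite directions, while 31 were called in WT alone and 10 in cr alone. Over all genes 48.3% were called over stage in WT and 28.7% in cr. How all genes split over the 2 comparisons together was not counted, so this split is not read as a trait of the members. A call in one genotype alone does not show that the genotypes differ, and the test of that difference is given with the interaction. HD-ZIP I again had more falls, 2 higher and 8 lower of 14, and HD-ZIP III had 0 and 1 of 7.

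**Figure D2:**
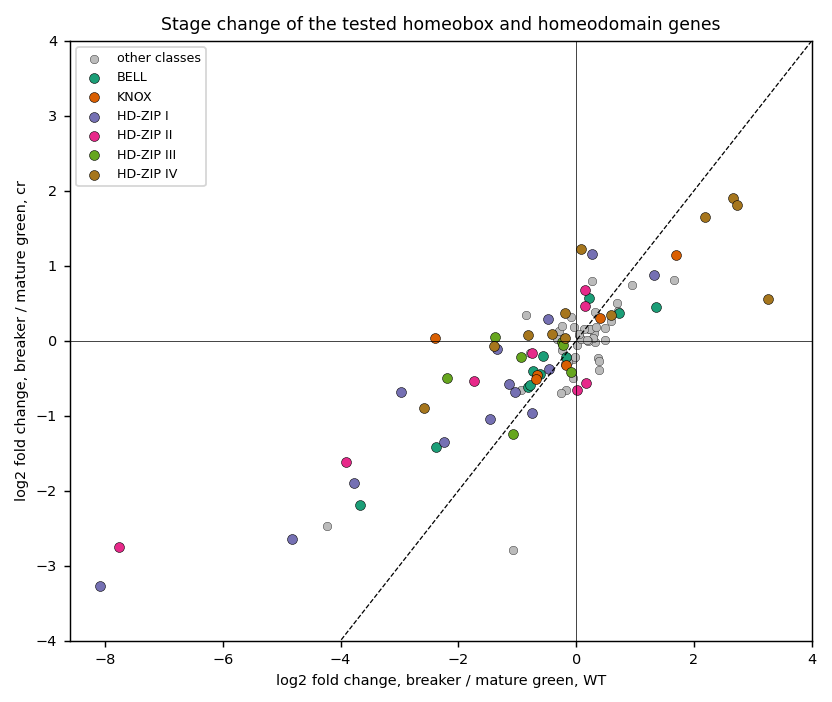
Log2 fold change from mature green to breaker in WT (horizontal axis) and in cr (vertical axis) for the 102 tested members, coloured by class, with equal change on the dashed line. Most genes far from 0 on the horizontal axis lie nearer 0 on the vertical axis, such as Solyc02g087840 at -8.09 and -3.27.

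Among HD-ZIP I genes the most abundant one moved against its class. Solyc03g113270 (chromosome 3, 57884788 to 57887006, plus strand), annotated LEVAHOX1G and nearest to ATHB-6, a negative regulator of abscisic acid responses in Arabidopsis, measured 388, 333 and 355 CPM in WT at mature green and 825, 934 and 928 CPM at breaker. In cr it measured 317, 332 and 284 CPM at mature green and 485, 554 and 669 CPM at breaker. All breaker libraries were above all mature green ones, and all cr breaker libraries were below all WT breaker ones. It rose by 1.32 in WT (SE 0.13, adjusted p = 3e-06) and by 0.87 in cr (SE 0.12, adjusted p = 0.000279) on the log2 scale, and at breaker cr was at -0.65 against WT (SE 0.12, adjusted p = 0.00212). These 3 calls held in all 21 alternative fits. The other genes with an ATHB-6 match were Solyc05g051460, which fell by 2.24 in WT and 1.35 in cr and was 1.24 higher in cr at breaker (adjusted p = 0.0149, or 0.0600 without cr breaker replicate 1), and Solyc04g074700, which fell by 0.96 in cr and was at -0.74 in WT (adjusted p = 0.0836).

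The steepest falls of the class were in 2 genes with an ATHB-13 match, a regulator of leaf shape and stress responses in Arabidopsis. Solyc02g087840 measured 6.75, 8.25 and 6.6 CPM in WT at mature green and 0.0595, 0 and 0 CPM at breaker, where the 3 libraries held 1 count against 409 before. In cr it measured 9.79, 5.76 and 9.61 CPM at mature green and 1.42, 0.858 and 0.284 CPM at breaker, 49 counts in all. No stage overlapped another in either genotype, and the cr breaker libraries were all above the WT ones. The WT stage ratio from summed counts was 363-fold (95% interval 64.8 to 14384, counting error only), and at breaker cr was 44.1-fold above WT (7.56 to 1778). The fitted changes were -8.09 in WT (SE 0.70, adjusted p = 1e-06) and -3.27 in cr (SE 0.40, adjusted p = 9.5e-05), and the first became -10.09 without WT breaker replicate 1, which holds the single count. At breaker the fitted difference was 5.04 (SE 0.91, adjusted p = 0.00158), or 7.04 without that library.

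Solyc05g007180, annotated jasmonic acid 1, showed the same order at higher counts. It measured 7.78, 11 and 5.4 CPM in WT at mature green and 0.417, 0.175 and 0.242 CPM at breaker, against 13, 11.9 and 16.7 CPM and then 2.89, 2.57 and 1.14 CPM in cr. The cr libraries were above the WT libraries at each stage, with a call at breaker only. It fell by 4.83 in WT (SE 0.45, adjusted p = 2e-06) and was at -2.65 in cr (SE 0.33, adjusted p = 0.000105), and at breaker cr was 2.96 above WT (SE 0.48, adjusted p = 0.000794).

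Of 2 further HD-ZIP I genes, Solyc02g085630, annotated ATHB-21, went from 1.96, 0.841 and 0.709 CPM to 0.119, 0.117 and 0 CPM in WT and from 3.03, 1.64 and 2.43 CPM to 1.27, 0.322 and 0.284 CPM in cr. Over stage it was at -3.78 in WT (SE 0.84, adjusted p = 0.00240), or -3.19 without WT mature green replicate 1. In cr it was at -1.89 (SE 0.59, adjusted p = 0.0283), or -2.94 without cr breaker replicate 1, the highest of its group. At breaker cr was 2.89 above WT (adjusted p = 0.0315), and without that library 1.85 (adjusted p = 0.182). Leaving out any WT breaker library also ended the breaker call, and leaving out cr breaker replicate 2 or 3 or cr mature green replicate 1 or 3 ended the call in cr. Solyc02g077590, with an ATHB-52 match, measured 6.03, 8.57 and 6 CPM and then 0.595, 1.58 and 0.424 CPM in WT. The cr values were 17.7, 2.48 and 8.78 CPM and then 4.81, 6.91 and 6.30 CPM, with overlap between stages. It fell by 2.97 in WT (SE 0.63, adjusted p = 0.00164) and was 2.78 higher in cr at breaker (SE 0.63, adjusted p = 0.00625), and these became 3.73 and 3.54 without WT breaker replicate 2.

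At breaker, HD-ZIP I genes were higher in cr than in WT more often than any other class. Of 102 members, 21 were called higher in cr (20.6%, against 14.0% of all genes) and 12 lower (11.8%, against 11.0%), while 25.0% of all genes were called in either direction. HD-ZIP I had 9 higher and 1 lower of 14, with a median log2 fold change of 0.92, HD-ZIP II had 3 and 0 of 8, HD-ZIP III 2 and 0 of 7, BELL 3 and 1 of 11, HD-ZIP IV 2 and 4 of 12, and DDT 0 and 3 of 5. Among these calls, Solyc02g024070 (HD-ZIP III) was lost in 14 of the 21 alternative fits, Solyc11g069890 (BELL) in 10 and Solyc11g065110 (DDT) in 9. The median was 0.07 over members and 0.00 over all genes tested. With library totals alone, which moved the median of all genes by 0.13, the split was 33 higher and 8 lower, and HD-ZIP I had 11 and 1. Over all genes 20.2% were then called higher and 6.77% lower, so higher levels made up 80.5% of member calls and 74.9% of all calls, against 63.6% and 56.0% in the TMM fit. The 9 HD-ZIP I genes higher in cr were each called lower over stage in WT, in a comparison that shares the WT breaker libraries, and Solyc03g113270, the 1 called lower in cr, rose over stage. They included both ATHB-7 matches, a gene family induced by drought in Arabidopsis: Solyc08g083130 at 0.80 (adjusted p = 0.00195; its fall in WT was not called without WT breaker replicate 1 or WT mature green replicate 3) and Solyc06g053220 at 1.04 (adjusted p = 0.0386). A gene on the opposite strand overlaps Solyc06g053220 with 860 counts against its own 817, so its values are uncertain. Among the others, Solyc05g006980, an ATHB-16 match, fell from 36.3 to 16.4 CPM in WT and from 42.4 to 28.4 CPM in cr (log2 -1.14 and -0.58), and at breaker was 0.79 higher in cr (adjusted p = 0.00587). Its fall in cr lost its call with the 2 groups alone and without cr breaker replicate 2 or 3 or cr mature green replicate 1 or 3. Solyc03g082550, an ATHB-12 match, went from 3.02 to 1.09 CPM in WT and from 5.44 to 2.63 CPM in cr (-1.47 and -1.05, the latter not called without cr mature green replicate 1), and at breaker was 1.27 higher in cr (adjusted p = 0.00773). Solyc11g010270, an ATHB-5 match and next in the class by FPKM, fell by 0.46 in WT and 0.37 in cr and was not called between the genotypes.

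**Figure D3:**
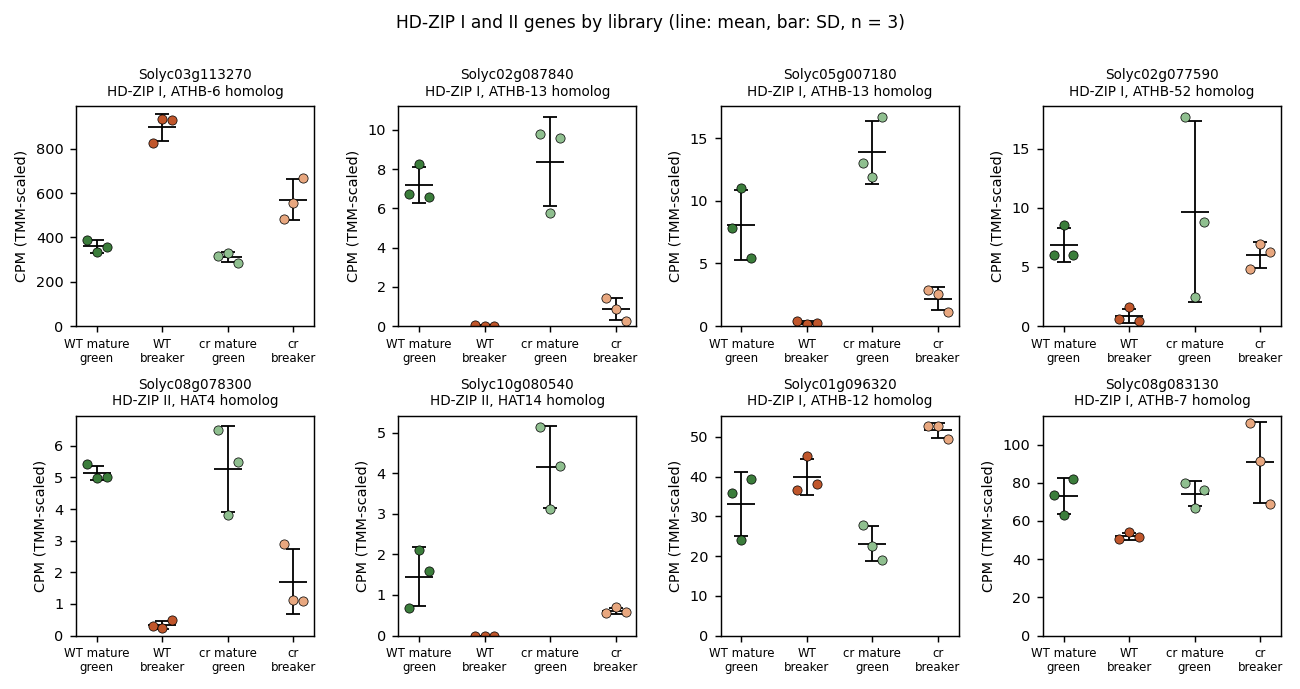
CPM (vertical axis, separate scale per panel) of 6 HD-ZIP I and 2 HD-ZIP II genes in the 12 libraries (points), with the group mean (line) and SD (bar, n = 3). In Solyc02g087840, Solyc05g007180, Solyc02g077590, Solyc08g078300 and Solyc10g080540 all WT breaker libraries lie below all cr breaker libraries.

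HD-ZIP II genes at low counts showed the pattern too. Solyc10g080540, annotated HOX27 with a HAT14 match, measured 0.670, 2.10 and 1.58 CPM in WT at mature green and 0 in all 3 WT breaker libraries. Values in cr were 5.14, 3.13 and 4.17 CPM and then 0.557, 0.697 and 0.568 CPM. Stages did not overlap within a genotype, nor genotypes within a stage, and the genotype difference at mature green was not called. Against a floor of 3 counts over the group, WT at mature green was at least 24.3-fold higher than WT at breaker, and cr at breaker was at least 10.2-fold higher than WT at breaker, both of them calls (adjusted p = 5.5e-05 and 0.00151). Solyc08g078300, annotated HAT4, the shade-avoidance gene of Arabidopsis, measured 5.41, 4.99 and 5.02 CPM and then 0.298, 0.234 and 0.485 CPM in WT. In cr libraries it stood at 6.51, 3.82 and 5.48 CPM and then 2.89, 1.13 and 1.08 CPM. It fell by 3.90 in WT (SE 0.44, adjusted p = 1.2e-05) and by 1.62 in cr (SE 0.35, adjusted p = 0.00426), and at breaker cr was 2.32 above WT (SE 0.47, adjusted p = 0.00304). Without cr breaker replicate 1 the last 2 values were 2.25 and 1.69. The most abundant HD-ZIP II gene, Solyc02g091930, ran from 17.3 to 38.3 CPM over all libraries and was called in no comparison.

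HD-ZIP III genes, the REVOLUTA and ATHB-15 family of leaf polarity and vascular development, fell or were not called. Solyc03g120910, with an ATHB-15 match, fell from 63.1 ± 13.3 to 29.9 ± 1.85 CPM in WT (log2 -1.08, adjusted p = 0.00104) and from 90.3 ± 14.5 to 38.2 ± 12 CPM in cr (-1.24, adjusted p = 0.000934). Solyc08g066500, also matching ATHB-15, fell from 2.47 ± 0.778 to 0.536 ± 0.104 CPM in WT and was 2.33 ± 1.37 CPM in cr at breaker, 2.10 above WT on the log2 scale (adjusted p = 0.00762). The most abundant of the class, Solyc11g069470, with a REVOLUTA match, measured 50.7 to 68.4 CPM over the 12 libraries and was called in no comparison. Its groups overlapped in each of the 4 pairwise comparisons.

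HD-ZIP IV genes held the 4 largest rises over stage in WT, from 2.19 to 3.25 on the log2 scale, the last in a gene that met the count rule through its WT breaker libraries. Cutin deficient 2, Solyc01g091630, a known regulator of the tomato fruit cuticle, measured 84.8, 73.6 and 77.7 CPM in WT at mature green and 115, 104 and 137 CPM at breaker. The values in cr were 59.2, 74.8 and 75.4 CPM and then 90.1, 80.8 and 94.2 CPM. It rose by 0.59 in WT (SE 0.12, adjusted p = 0.00133), was at 0.34 in cr (adjusted p = 0.0510) and at breaker was at -0.42 in cr against WT (SE 0.12, adjusted p = 0.0213). The last call was lost in 4 of the alternative fits: with library totals alone, without WT breaker replicate 3, without cr breaker replicate 2, and without WT mature green replicate 3 together with cr breaker replicate 1 (adjusted p up to 0.122). Of 4 cuticle genes listed with it, CD1, CD3 and GPAT6 were tested and were called lower over stage in both genotypes, so the regulator and these 3 genes moved in opposite directions in WT. CD3 went from 13.6 ± 11.2 to 0.0995 ± 0.0921 CPM in WT and from 7.52 ± 9.02 to 1.16 ± 0.563 CPM in cr.

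The 3 HD-ZIP IV genes annotated ROC8 with an HDG8 match did not move alike. Solyc09g066060 measured 2.73, 1.94 and 3.82 CPM in WT at mature green and 16.5, 24.4 and 15.6 CPM at breaker, and in cr 2.89, 2.18 and 2.43 CPM and then 4.15, 12 and 10.4 CPM. It rose by 2.73 in WT (SE 0.36, adjusted p = 4.1e-05) and by 1.82 in cr (SE 0.36, adjusted p = 0.00246). At breaker it was lower in cr by -1.09 (SE 0.33, adjusted p = 0.0268), a call lost without WT breaker replicate 2, without cr breaker replicate 1 and with the 2 groups alone. Solyc11g011940 measured 5.62, 5.04 and 3.71 CPM and then 0.893, 0.934 and 0.545 CPM in WT, and 5.48, 3.23 and 3.74 CPM and then 2.58, 1.23 and 2.84 CPM in cr. It fell by 2.59 in WT (SE 0.37, adjusted p = 7.6e-05) and was 1.48 higher in cr at breaker (SE 0.38, adjusted p = 0.0121). The third, Solyc05g015030, became a member through the WT breaker libraries, since 1 other library reached 10 counts. It held 9 counts in WT at mature green and 79 at breaker, of which 51 were in replicate 1, and its rise of 3.25 became 2.35 without that library. At breaker it was lower in cr by -2.19 (adjusted p = 0.0393), and without that library at -1.28 (adjusted p = 0.253).

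Other HD-ZIP IV genes rose at low levels. Solyc03g098200, annotated HDG12, measured 1.24, 0.841 and 0.764 CPM in WT at mature green and 4.59, 3.97 and 4.48 CPM at breaker, and in cr 0.734, 0.695 and 1.46 CPM and then 3.34, 2.25 and 3.52 CPM. It rose by 2.19 in WT (SE 0.33, adjusted p = 0.000118) and by 1.65 in cr (SE 0.33, adjusted p = 0.00240). Solyc06g050160, annotated HDG1, was at or below 0.291 CPM in every mature green library and at 0.568 to 1.25 CPM in the breaker libraries. It rose by 2.67 in WT (adjusted p = 0.00540), or 3.43 without WT mature green replicate 1, and by 1.91 in cr (adjusted p = 0.0373), a call lost in 12 of the alternative fits. Solyc06g072310, with an HDG11 match, was called only over stage in cr (1.22, adjusted p = 0.0408), from 0.881, 0.695 and 0.922 CPM to 1.98, 1.98 and 1.87 CPM, a call lost in 10 of the fits. Woolly, Solyc02g080260, a tomato trichome regulator, fell in WT by 1.40 (adjusted p = 0.0401) from 1.10 ± 0.382 to 0.413 ± 0.305 CPM with overlapping libraries. That call was lost in 11 of the fits, and the value was -2.17 without WT breaker replicate 2.

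**Figure D4:**
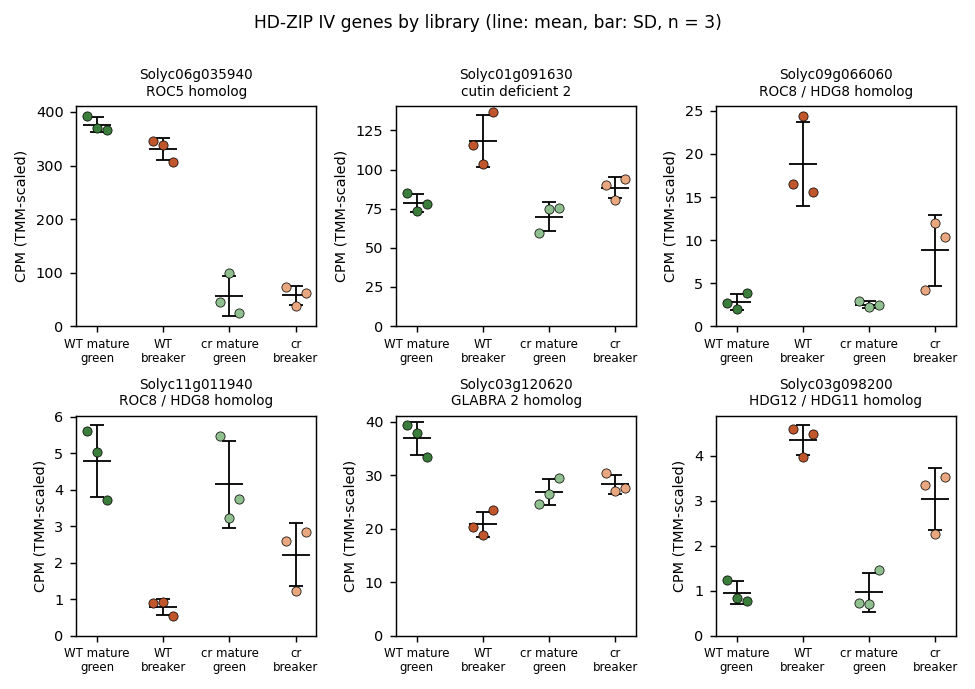
CPM (vertical axis, separate scale per panel) of 6 HD-ZIP IV genes in the 12 libraries (points), with the group mean (line) and SD (bar, n = 3). Solyc06g035940 is below 100 CPM in all cr libraries and above 300 CPM in all WT libraries, and the ROC8-annotated genes Solyc09g066060 and Solyc11g011940 move in opposite directions over stage in WT.

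The 3 most abundant BELL genes, all with the BEL1-like protein 1 match, also divided. Solyc01g007070, annotated BEL1-like protein 3, measured 639, 582 and 572 CPM in WT at mature green and 383, 355 and 346 CPM at breaker, against 624, 745 and 676 CPM and then 617, 442 and 479.9 CPM in cr. It fell by 0.73 in WT (SE 0.13, adjusted p = 0.000387) and by 0.41 in cr (SE 0.13, adjusted p = 0.0269, lost without cr replicate 2 or 3 of either stage and with the 2 groups alone), and was 0.51 higher in cr at breaker (SE 0.13, adjusted p = 0.0105). Solyc11g068950 measured 627, 513 and 489 CPM and then 362, 361 and 379.5 CPM in WT, and 480.3, 480.0 and 532 CPM and then 414, 437 and 446 CPM in cr. It fell by 0.56 in WT (SE 0.10, adjusted p = 0.000661) and was at -0.20 in cr (adjusted p = 0.168). Solyc06g074120, annotated bell-like protein 2, measured 276, 291 and 294 CPM and then 475, 462 and 488 CPM in WT, and 298, 293 and 286 CPM and then 321, 403 and 407 CPM in cr. It rose by 0.73 in WT (SE 0.10, adjusted p = 5.7e-05) and by 0.37 in cr (SE 0.10, adjusted p = 0.0142), the latter lost without cr breaker replicate 2 or 3 or cr mature green replicate 3. At breaker it was at -0.33 in cr against WT (adjusted p = 0.0250), a call lost in 6 of the alternative fits, among them those without WT breaker replicate 1 or 3 or cr breaker replicate 1.

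Lower BELL genes mostly fell. Solyc11g069890, annotated BEL1-like protein 8, went from 8.64 ± 1.83 to 1.66 ± 0.86 CPM in WT (log2 -2.37, adjusted p = 0.000132) and from 9.64 ± 0.785 to 3.60 ± 1.41 CPM in cr (-1.42, adjusted p = 0.00637). Solyc01g109980, annotated BEL1-like protein 7, went from 76.4 ± 3.45 to 43.1 ± 3.33 CPM in WT (-0.83, adjusted p = 4.7e-05) and from 96.1 ± 12 to 62.7 ± 6.78 CPM in cr (-0.62, adjusted p = 0.00116). Solyc10g086640, annotated BEL1-like protein 9, had 48 counts in WT at mature green and 3 at breaker, a ratio of 14.2 (95% interval 4.58 to 71.3, counting error only), and it met the count rule only with its mature green libraries. Solyc04g080790, annotated BEL1-like protein 7, instead rose in WT by 1.36 (adjusted p = 0.0135), from 1.05 ± 0.547 to 2.70 ± 0.458 CPM.

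Class II KNOX genes with the same LET12 match went in opposite directions. Solyc07g007120, the abundant one, measured 316, 326 and 341 CPM in WT at mature green and 211, 189 and 213 CPM at breaker, and in cr 316, 344 and 337 CPM and then 261, 233 and 208 CPM. It fell by 0.68 in WT (SE 0.10, adjusted p = 8e-05) and by 0.51 in cr (SE 0.10, adjusted p = 0.00195). Solyc12g010410, annotated knotted-1-like 3, measured 2.53, 2.21 and 1.53 CPM and then 4.29, 6.83 and 9.33 CPM in WT, and 3.28, 2.68 and 3.64 CPM and then 7.40, 6.32 and 7.44 CPM in cr. It rose by 1.70 in WT (SE 0.28, adjusted p = 0.000262) and by 1.14 in cr (SE 0.27, adjusted p = 0.00694). The class I KNOX gene LET6, Solyc02g081120, known for compound leaf development in tomato, was scarce, at 0.967 ± 0.528 CPM in WT at mature green and 0.180 ± 0.107 CPM at breaker, a fall of 2.39 (SE 0.64, adjusted p = 0.00740). It reached 10 counts in the 3 WT mature green libraries and in 1 other, so it became a member through the group it fell from. In cr it was at 0.311 ± 0.078 and 0.313 ± 0.225 CPM. No KNOX gene was called between the genotypes at either stage or in the interaction.

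Of 29 groups of members that share a best Swiss-Prot match, 4 held members called both up and down over stage in WT: the BEL1-like 1, LET12, ATHB-6 and HDG8 groups described above. These groups were formed after the values were seen.

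The single WOX gene, Solyc02g082670, annotated WOX13, was among the 7 most abundant members and was called only over stage in cr. It measured 105, 94.6 and 74.3 CPM in cr at mature green and 146, 162 and 169 CPM at breaker, a rise of 0.80 (SE 0.13, adjusted p = 0.000778). In WT it measured 120.3, 113 and 143 CPM and then 147, 167 and 136 CPM, with overlapping stages (0.26, adjusted p = 0.119), and the difference between the genotypes' stage changes was not called (0.54, SE 0.19, adjusted p = 0.0748). That result depended on the scaling: the difference was called with upper quartile factors (0.60, adjusted p = 0.0416) and with library totals alone (0.64, adjusted p = 0.0225). Among ZF-HD genes, whose homeodomain is paired with a zinc finger, Solyc02g067320 measured 1.86, 3.26 and 1.96 CPM and then 0.0595, 0.0584 and 0.242 CPM in WT, and 3.67, 1.59 and 2.23 CPM and then 0.608, 0.268 and 0.454 CPM in cr. It fell by 4.23 in WT (SE 0.58, adjusted p = 6e-05), or 5.17 without WT breaker replicate 3, and by 2.47 in cr (SE 0.47, adjusted p = 0.00187). Solyc05g007580 was called in cr alone, falling by 2.79 (SE 0.64, adjusted p = 0.00589), or 3.87 without cr breaker replicate 1, from 0.636, 0.844 and 1.21 CPM to 0.253, 0 and 0.114 CPM. It reached 10 counts in the 3 cr mature green libraries alone, so it became a member through the group it fell from. Solyc09g089550, the most abundant ZF-HD gene, measured 24.7 to 34.9 CPM and was called in no comparison.

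Genes of the DDT class, relatives of the Arabidopsis RLT proteins that work with ISWI chromatin remodellers, mostly rose in WT, 4 of 5 with a call. Solyc12g099760 went from 36.8 ± 1.41 to 70.6 ± 2.36 CPM in WT (log2 0.94, adjusted p = 1e-06) and from 30.9 ± 0.166 to 52.0 ± 4.28 CPM in cr (0.75, adjusted p = 3.8e-05). At breaker it was at -0.44 in cr against WT (adjusted p = 0.00146), and all 3 calls held in all 21 alternative fits. Solyc02g077660, the most abundant of the class, measured 159, 141.5 and 129.7 CPM and then 192, 189 and 222 CPM in WT, a rise of 0.49 (SE 0.12, adjusted p = 0.00415) that library totals alone left at 0.29 (adjusted p = 0.0637). In cr the libraries held 147, 152 and 153 CPM and then 139.6, 187 and 182 CPM, with no call. With library totals alone the class had 2 higher and 0 lower of 5 in WT. The other homeobox genes, among them LUMINIDEPENDENS and OCP3 relatives, had 5 higher and 0 lower of 9 in WT, with log2 fold changes of 0.20 to 0.48, but 0 called with library totals alone. Solyc08g061140, the OCP3 relative and most abundant of these, measured 38.3, 37.5 and 32.7 CPM and then 44.8, 44.3 and 48.5 CPM in WT (0.34, SE 0.08, adjusted p = 0.00477). SAWADEE genes, whose Arabidopsis relatives act in RNA-directed DNA methylation, had 0 higher and 2 lower of 4 in WT. Of these 2, Solyc10g007130 (log2 -0.23) lost its call in 14 of the 21 alternative fits. The most abundant SAWADEE gene, an SHH1 match that carries no gene symbol (chromosome 3, 63619947 to 63624652, minus strand), went from 71.9, 77.4 and 86.8 CPM to 62.5, 64.3 and 61.2 CPM (-0.33, SE 0.08, adjusted p = 0.00514). Over all genes, 48.3% were called over stage in WT (23.4% higher, 24.9% lower), and these small classes were not tested against those shares.

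Among the 22 genes taken in by wording alone, 7 of the 21 tested were called over stage in WT, 3 higher and 4 lower. Between the genotypes at breaker, 4 of the 21 were called. Both were smaller shares than those of all genes, of which 48.3% were called over stage in WT (23.4% higher, 24.9% lower). At breaker the share of all genes was 25.0%. KANADI-like genes, relatives of Arabidopsis organ polarity factors, divided by match over stage in WT, a grouping made after the values were seen. Of 3 KAN2 matches 2 were called higher, and the 2 KAN1 matches were called lower. The call of the KAN1 match Solyc11g011770 was lost in 4 of the alternative fits. In cr none of the homeodomain-like genes was called lower. Solyc06g066340, a KAN2 match, measured 5.31, 6.41 and 4.47 CPM and then 17.4, 17.7 and 16.4 CPM in WT, and 5.82, 4.37 and 4.32 CPM and then 6.59, 10 and 8.86 CPM in cr. It rose by 1.67 in WT (SE 0.19, adjusted p = 1.3e-05) and by 0.81 in cr (SE 0.19, adjusted p = 0.00704), and at breaker was lower in cr by -1.02 (SE 0.18, adjusted p = 0.00160). Solyc05g051060, a KAN1 match on chromosome 5 (60632570 to 60638830, minus strand), measured 39.4, 33.7 and 38.6 CPM and then 24.2, 17.4 and 20.2 CPM in WT. The cr libraries measured 37.7, 30.6 and 35.2 CPM and then 43.4, 41.3 and 46.8 CPM. It fell by 0.85 in WT (SE 0.13, adjusted p = 0.000103), and at breaker every cr library was above every WT library, by 1.09 (SE 0.13, adjusted p = 7.4e-05). The most abundant plant homeodomain finger gene, Solyc07g047780, an OBERON-like gene, went from 55.2, 41.8 and 45 CPM to 64.9, 76.2 and 72.0 CPM in WT (0.59, SE 0.11, adjusted p = 0.000745) and was at 55.6, 52.7 and 52.6 CPM in cr at breaker (-0.41 against WT, adjusted p = 0.0169, lost with library totals alone and without WT breaker replicate 2 or cr breaker replicate 3). The most abundant homeodomain-like gene, Solyc06g036300, a REVEILLE 6 match, stayed between 43.0 and 55.6 CPM and was called in no comparison.

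The interaction, the stage change in cr minus that in WT, was called for 13 of 102 members (12.7%, against 13.1% of all genes). A positive value means that cr fell less or rose more than WT, and 12 were positive (11.8%, against 8.53% of all genes) and 1 negative (0.980%, against 4.62%). The split was 12 and 4 with DESeq2, and 14 and 0 both with upper quartile factors and with library totals alone, where positive values made up 73.3% and 78.7% of all genes called, against 64.9% in the TMM fit. The xylem-annotated genes moved the same way, with 8 positive and 0 negative of 26, and the seed-annotated genes had 11 and 4 of 64. Their part in the split was not tested. HD-ZIP I and II held 4 each. Leaving out 1 library moved the count to 5 (WT breaker replicate 2), 6 (WT breaker replicate 1), 7 (cr breaker replicate 1) or 8 (WT mature green replicate 3, and each of cr mature green replicates 2 and 3), and limma on FPKM gave 7. Only 3 of the 13 were called in all 20 alternative fits: Solyc05g051060, Solyc03g120620 and Solyc06g060830.

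In Solyc05g051060, the KAN1 match, the interaction was 1.2 (SE 0.17, adjusted p = 0.00102). In Solyc06g060830 it was 1.2 (SE 0.26, adjusted p = 0.00929): WT went from 6.75, 6.99 and 7.69 CPM to 2.44, 2.22 and 1.76 CPM, while cr went from 4.26, 4.66 and 4.32 CPM to 3.39, 2.84 and 2.90 CPM. In Solyc03g120620, the GLABRA 2 relative, it was 0.90 (SE 0.15, adjusted p = 0.00279): WT went from 39.4, 37.8 and 33.3 CPM to 20.3, 18.7 and 23.4 CPM, while cr went from 24.7, 26.5 and 29.5 CPM to 30.3, 27.0 and 27.6 CPM. The cr libraries of this gene were thus below WT at mature green and above WT at breaker, without overlap at either stage. In Solyc01g096320, with a match to the drought-induced ATHB-12, WT stages overlapped at 35.8, 24.0 and 39.4 CPM and then 36.7, 45.1 and 38.1 CPM. In cr it rose from 27.7, 22.5 and 19 CPM to 52.8, 52.7 and 49.5 CPM (1.16, SE 0.17, adjusted p = 0.000362). The 1 negative value was that of Solyc11g006200, a DDT gene, with 25.5, 24.2 and 22.7 CPM and then 34.1, 32.2 and 27.0 CPM in WT, and 23.9, 19.1 and 26.4 CPM and then 17.7, 21.0 and 20.2 CPM in cr (-0.60, SE 0.18, adjusted p = 0.0465). That call was lost in 16 of 20 alternative fits, and the interaction of Solyc01g096320 in 10.

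**Figure D5:**
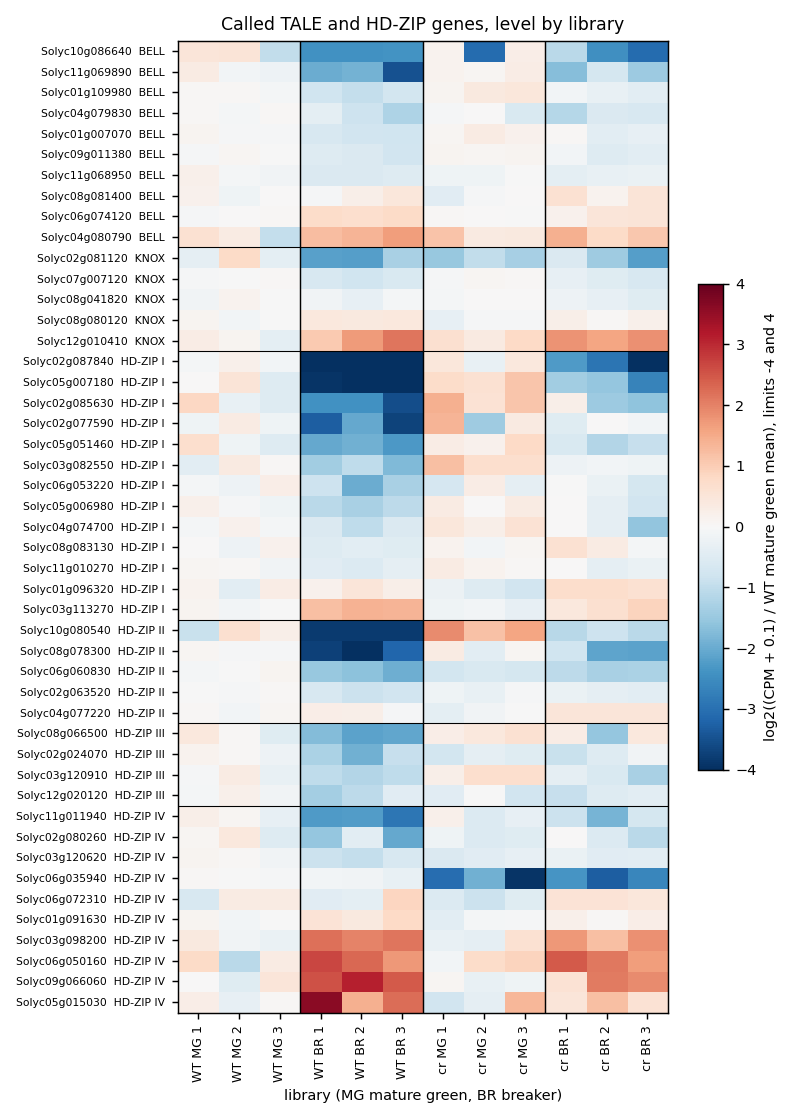
Level of the 47 called BELL, KNOX and HD-ZIP genes in each library, as log2 of CPM + 0.1 relative to the WT mature green mean (colour, limits -4 and 4), ordered by class and by stage change in WT. Colours in the cr breaker columns are mostly paler than in the WT breaker columns, and Solyc06g035940 is blue in all cr columns.

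Genes known to act with homeodomain proteins were listed by annotation or name. Their counts are description only, and no test of a list was run. Over stage, 23.4% of all genes were called higher and 24.9% lower in WT, and 15.2% and 13.5% in cr. OVATE family proteins, which bind TALE proteins in Arabidopsis, had 4 tested of 27, with 0 higher and 3 lower over stage in WT and 0 and 2 in cr. Ovate family protein 29, Solyc11g006670, was the highest of these, at 6.29 CPM and then 0.834 CPM in WT (-2.91, adjusted p = 5.6e-05) and 5.90 and then 1.33 CPM in cr (-2.14, adjusted p = 0.00102). LOB domain genes, one of which represses KNOX genes in Arabidopsis, had 3 higher and 2 lower of 11 tested in WT and 3 and 0 in cr. Gibberellin oxidases, among which KNOX proteins have targets in other plants, had 3 higher and 2 lower of 7 in WT and 2 and 0 in cr. Gibberellin 2-oxidase 2, Solyc07g056670, rose from 10.7 to 162 CPM in WT and from 7.66 to 37.6 CPM in cr, and was the 1 of the 7 called at breaker between genotypes (-2.11, adjusted p = 0.00727). CLAVATA and CLE genes had 0 higher and 2 lower of 7 in WT and 1 and 2 in cr, and neither of 2 isopentenyltransferases tested was called. Of the chloroplast regulators listed, GLK2 (annotated uniform ripening) fell from 12.6 to 0.475 CPM in WT and from 9.09 to 2.36 CPM in cr, with an interaction of 2.77 (adjusted p = 0.00445). GLK1 also fell and APRR2-like rose in both genotypes.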

How the data were processed

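Per the labels' protocols, RNA of flash-frozen pericarp was extracted with Trizol. Tools listed, without roles, in the submitters' processing notes are HISAT2 2.0.5, fastp 0.23.1, edgeR 3.22.5, featureCounts 1.5.0-p3 and DESeq2 1.20.0. The authors deposited read counts per gene, not normalized, and FPKM values, with coordinates on SL4.0. The sources used here give neither the strand setting nor the treatment of multi-mapping reads, so overlapping genes and close paralogs are uncertain.

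Counts were filtered with filterByExpr (minimum count 10, total 15; 19664 genes left), scaled by TMM and tested with edgeR 4.0.16 in R 4.3.3 over all 12 libraries, 1 coefficient per group. P-values were adjusted by Benjamini-Hochberg over all genes in each of 5 comparisons. SE is the log2 fold change over the root of F. Alternatives were DESeq2 1.42.0, limma 3.58.1 on log2(FPKM + 1), other factors and filters, 2 groups alone, a replicate block and each library left out. Leaving out 2 libraries that stand apart was added after seeing the data. The code was tested on simulated counts.

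The members and gene lists were chosen with earlier results of these data known. Genes named with values in each library are those of largest change per comparison (up to 5 each way), the 5 of highest FPKM, the most abundant of each class, and, with shorter values, up to 3 further called members per class; the rest were chosen after their values were seen. Floors are 3 counts over a group, and 95% intervals are exact binomial ones.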

Additional observations from a re-analysis of the deposited data

Results flagged for a closer look

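The stage change was called different between the genotypes, by the edgeR interaction test, in 13 members (12.7%, against 13.1% of all genes). The values, cr minus WT on the log2 scale, were 5.01 for Solyc10g080540, 4.82 for Solyc02g087840, 2.28 for Solyc08g078300, 2.18 for Solyc05g007180, 1.69 for Solyc11g011940, 1.42 for Solyc02g024070 and 1.2 for both Solyc06g060830 and Solyc05g051060. They were 0.90 for Solyc03g120620, 0.89 for Solyc01g096320, 0.77 for Solyc08g083130, 0.58 for Solyc02g063520 and -0.60 for Solyc11g006200. The largest 2 rest on WT breaker libraries with 0 and 1 counts, so their fitted values depend on the prior count. Without WT breaker replicate 1 the value of Solyc02g087840 was 6.82, and without cr breaker replicate 1 that of Solyc08g078300 was 1.65. Calls held in all 20 alternative fits for Solyc05g051060, Solyc03g120620 and Solyc06g060830. The call was lost in 16 fits for Solyc11g006200 and in 11 for Solyc11g011940. It was lost in 10 for Solyc02g024070, Solyc01g096320 and Solyc08g083130, in 8 for Solyc05g007180 and in 7 for Solyc10g080540. Further losses were 6 for Solyc02g063520, 4 for Solyc08g078300 and 1 for Solyc02g087840. Solyc02g024070, with an ATHB-14 match, measured 4.03 ± 0.483 and 1.55 ± 0.536 CPM in WT and 2.75 ± 0.368 and 2.85 ± 0.755 CPM in cr. Solyc02g063520, annotated HAT22, measured 16.8 ± 0.605 and 9.94 ± 0.69 CPM in WT and 14.9 ± 1.41 and 13.2 ± 0.801 CPM in cr. Solyc08g083130 measured 72.9 ± 9.41 and 52.0 ± 1.83 CPM in WT and 74.3 ± 6.72 and 90.7 ± 21.3 CPM in cr.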

How the results depend on the processing

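The counts of called members kept within 1.5 times the main count under most alternatives. At mature green the main count of 3 became 6 with DESeq2 (2 higher, 4 lower), 1 with no normalization factors and 1 with the replicate block. In the interaction the main count of 13 became 7 with limma on log2(FPKM + 1), and 6 without WT mature green replicate 3 and cr breaker replicate 1 together, which was added after seeing the data. Leaving out each library in turn gave 1 to 4 calls between genotypes at mature green, 25 to 31 at breaker, 49 to 62 over stage in WT, 26 to 41 over stage in cr and 5 to 12 in the interaction. With the replicate block the other counts were 29, 55, 33 and 10. Same-numbered libraries correlated at -0.152 to 0.0799, as deviations from their group means, and 1 of 12 libraries was closest to its own number. No pairing by number was seen, but the labels do not state one and this check cannot exclude it. Of 134 called results of named members, 85 kept their call in every alternative run. Of 2797 alternative values, 2475 kept the call, 321 lost it and 1 turned direction: the interaction of Solyc10g080540 was -0.44 (adjusted p = 0.342) with limma on log2(FPKM + 1), and the cause was not tested. Genes with few counts have the widest errors, and a fold on log2(FPKM + 1), where 1 is added to each value, understates their change.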
